A study of Rattus norvegicus with 12 samples.

Results

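Hepatocytes taken from rat livers 30 h after the donor's death were compared with hepatocytes taken 16 h after death. The 30 h group and the 16 h group held 3 donor animals each, labelled as biological replicates, with 1 array per animal. These are 6 of the 12 arrays of the study. The other 6 came from heart-beating donors and from donors dead for 4 h, 3 of each, and served to estimate the spread and as levels beside the comparison. Every donor was labelled Fischer 334, no label names a treatment or a genetic change, and the labels used here give no age, no hour of day and no storage condition for the bodies. In every group the cells were freed by collagenase perfusion of the liver, and total RNA was extracted without any culture. The comparison covers all probe sets other than array controls that were tied to 1 gene symbol, which is 20826 of 31099 probe sets. They stand for 14217 genes, each read through its brightest probe set, averaged over the 12 arrays.

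Hepatocytes make most plasma proteins, detoxify, handle nitrogen and supply glucose and lipids, and they keep a strong daily rhythm in their transcripts. That rhythm rests on a feedback loop. The activators CLOCK, NPAS2 and BMAL1 drive Period, Cryptochrome and REV-ERB genes as well as the output factors DBP, TEF and HLF, and the products of the first 3 families repress the loop in turn. A transcript measured after death reflects both what was made and what was degraded, and an array that primes from the poly(A) tail loses the 5' end of a fragmented transcript before its 3' end.

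All values below are log2 signals, on which a difference of 1 is 2-fold, and every difference is 30 h minus 16 h. A gene was called higher or lower when its limma p-value, adjusted over the 14217 genes, was under 0.05. At 30 h 1821 genes were called (12.8%), of which 676 were higher (4.75%) and 1145 lower (8.05%). The largest changes were taken only from called genes whose groups did not overlap, so their separation was set by the choice. The 15 largest falls held the clock genes Dbp, Nr1d1 and Nr1d2, enzymes of fatty acid and amino acid use and plasma proteins. The 15 largest rises held the clock genes Cry1 and Npas2, the lipid regulator G0s2 and the phosphatase Dusp6. In RNA of a whole preparation, fewer cells of a type and less RNA per cell cannot be told apart. Most called differences were small, with a median size of 0.449, and 115 genes differed at least 2-fold (0.809%), 30 higher and 85 lower. The median difference over all genes was 0.011. In 29% of genes all arrays of one group lay above all arrays of the other, 13.1% with 30 h above and 15.9% with 30 h below. Of the calls, 62.9% were lower, a share that came to 51.3% after a further quantile normalization of the 14217 genes. The count rests on single animals: it was 716 without 16 h animal 1 and 1161 without 16 h animal 2, and the calls of at least 2-fold numbered 69 without 16 h animal 1 and 71 without 30 h animal 1.

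**Figure D1:**
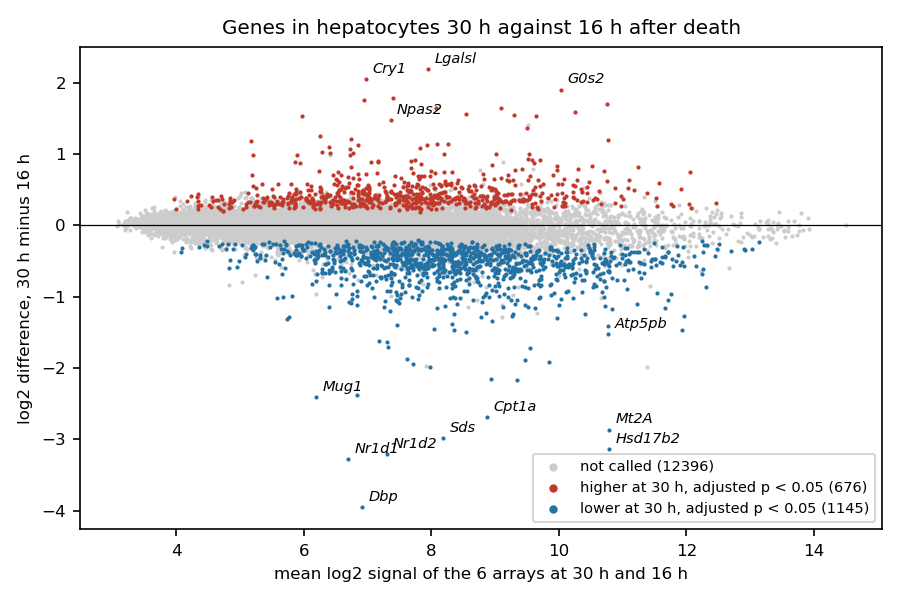
Each point is 1 of 14217 genes, with its mean log2 signal over the 6 arrays on the horizontal axis and its log2 difference, 30 h minus 16 h, on the vertical axis. The 676 genes called higher and the 1145 called lower are coloured, and the clock genes Dbp, Nr1d1 and Nr1d2 lie lowest while Lgalsl and Cry1 lie highest.

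The 30 h arrays were the more variable ones. Replicates correlated at 0.991 to 0.9937 at 30 h, against 0.9953 to 0.9971 at 16 h, and the median SD of a gene was 0.124 at 30 h and 0.086 at 16 h. RNA quality differed between the groups as well. The 3' control probe set of Gapdh, a glycolytic enzyme, exceeded the 5' one by 2.31, 1.82 and 1.79 at 30 h, against 0.85, 1.25 and 1.06 at 16 h, so all 30 h arrays lay above all 16 h arrays. The mean difference between the ends was 1.97 ± 0.29 at 30 h and 1.05 ± 0.20 at 16 h (SD, n = 3 each, exact two-sided permutation p = 0.1, the smallest that 3 against 3 can give). For Actb, a cytoskeletal actin, the 3' to 5' difference was 2.75, 2.92 and 2.95 at 30 h, against 1.89, 2.54 and 2.22 at 16 h (exact permutation p = 0.1). The 3' signals of both genes differed little between the groups, by 0.03 for Gapdh and 0.09 for Actb, while the 5' signals were lower at 30 h by 0.88 and 0.57 in the means. The hexokinase control did not show this, with 3' to 5' differences of 0.90 at 30 h and 0.94 at 16 h (exact permutation p = 0.6). Its 5' signal was low on the scale, with means of 3.79 at 30 h and 3.72 at 16 h. Because the groups do not overlap in the Gapdh difference, time after death and the loss of 5' signal cannot be told apart in these arrays. With the Gapdh difference as a covariate, 7 genes were called, and the median SE was 0.193 with it and 0.089 without it. Of the 1821 called genes, 1379 had the same sign in that fit and 442 the opposite one: 628 of the 676 rises had the same sign, and 751 of the 1145 falls. That count is given with the gene groups below.

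The core clock differed on both of its arms between the 16 h and the 30 h donors. These were different animals, and the labels used here give no hour of day. Time after death and hour of day therefore cannot be told apart for these genes. Of 19 measured clock genes 4 were called higher (21.1%, against 4.75% of all genes), 6 were called lower (31.6%, against 8.05%) and 9 were not called. The activators Npas2, Bmal1 and Clock rose with Cry1, a repressor, while the REV-ERB repressors Nr1d1 and Nr1d2, the Period genes Per1 and Per3 and the output factors Dbp and Tef fell. These counts were 4 and 6 in the fits that left out 1 array, except that 5 were higher without heart-beating animal 2, and were 4 and 6 after median centring, cyclic loess and further quantile normalization. All 10 called genes had the same sign with the Gapdh covariate.

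Dbp, an output transcription factor of the PAR bZIP family, had log2 signals of 5.16, 4.82 and 4.84 at 30 h, against 9.44, 8.41 and 8.81 at 16 h. It fell 15.4-fold, with a difference of -3.95 (SE 0.19, adjusted p = 8.37e-08). Its means were 5.16 in heart-beating donors and 5.25 at 4 h, so the 16 h arrays stood high among the 4 groups and the 30 h arrays lay beside the early ones. Tef, of the same family, had 7.80, 8.04 and 7.99 at 30 h, against 9.21, 8.96 and 8.69 at 16 h, a difference of -1.01 (SE 0.12, adjusted p = 0.000473). A second probe set of Tef was also called lower at -0.69, and the remaining one read -0.22 and was not called. Hlf, the remaining PAR bZIP member, was not called at -0.16 (SE 0.11, adjusted p = 0.394).

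Nr1d1, which encodes the heme-binding repressor REV-ERB alpha, had 5.13, 5.05 and 5.0 at 30 h, against 8.55, 8.22 and 8.24 at 16 h. It fell 9.7-fold, with a difference of -3.28 (SE 0.14, adjusted p = 3.3e-08), and its means were 5.41 in heart-beating donors and 5.28 at 4 h. Nr1d2, which encodes REV-ERB beta, had 6.12, 6.23 and 4.74 at 30 h, against 8.98, 8.79 and 8.94 at 16 h, a fall of 9.23-fold with a difference of -3.21 (SE 0.33, adjusted p = 0.0003). The 3 arrays at 30 h did not agree closely for Nr1d2, animal 3 being the lowest, yet all of them lay below every 16 h array. A second probe set of Nr1d2 was called lower at -2.94, and another, near the floor of the scale, read -0.06 and was not called.

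Of the Period genes Per1 and Per3 were called. Per3 had 5.31, 4.89 and 5.02 at 30 h, against 6.90, 6.14 and 6.12 at 16 h, a difference of -1.31 (SE 0.17, adjusted p = 0.000768), and its means were 4.89 in heart-beating donors and 4.94 at 4 h. Per1 had 7.25, 7.25 and 7.19 at 30 h, against 8.25, 8.02 and 7.90 at 16 h, a difference of -0.83 (SE 0.11, adjusted p = 0.000768). Both sets of arrays were separated for these 2 genes, with 30 h below 16 h. Per2 was not called by its brighter probe set at 0.09 (SE 0.09, adjusted p = 0.528), nor by its other one at 0.57 (adjusted p = 0.208). The other probe set of Per3 lay near the floor of the scale and read -0.03.

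Cry1, a Cryptochrome that represses the activators, had 7.53, 8.22 and 8.26 at 30 h, against 6.38, 5.60 and 5.89 at 16 h. It rose 4.13-fold, with a difference of 2.05 (SE 0.23, adjusted p = 0.000357), and every 30 h array lay above every 16 h array. Its means were 6.98 in heart-beating donors and 7.10 at 4 h, so the 30 h level also lay above the early ones. Cry2 was not called at -0.17 (SE 0.10, adjusted p = 0.3). Among the activators, Npas2 had 8.28, 8.31 and 7.71 at 30 h, against 6.70, 6.64 and 6.53 at 16 h, a rise of 2.78-fold with a difference of 1.48 (SE 0.14, adjusted p = 0.000123). Bmal1 had 6.71, 7.16 and 6.90 at 30 h, against 6.24, 6.32 and 5.94 at 16 h, a difference of 0.76 (SE 0.13, adjusted p = 0.00277), and Clock had 7.75, 8.03 and 7.88 at 30 h, against 7.20, 7.34 and 7.27 at 16 h, a difference of 0.61 (SE 0.09, adjusted p = 0.00161). The means of Npas2 were 8.34 in heart-beating donors and 8.35 at 4 h and those of Bmal1 7.31 in heart-beating donors and 7.39 at 4 h, so the 16 h arrays stood low among the 4 groups for both activators. A second probe set of Clock was called higher at 0.54, and its remaining ones, low on the scale, were not called at 0.02 and -0.11. Rora, whose product activates Bmal1, was not called by its brighter probe set at -0.14 (SE 0.09, adjusted p = 0.354), while its other probe set was called higher at 0.54 (adjusted p = 0.0195).

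The remaining clock genes were not called. They are the repressors Bhlhe40 at -0.73 (SE 0.41, adjusted p = 0.266) and Bhlhe41 at -0.30 (SE 0.11, adjusted p = 0.103), the output repressor Nfil3 at 0.43 (SE 0.21, adjusted p = 0.213), the kinase gene Wee1 at -0.01 (SE 0.07) and the deubiquitinase gene Usp2 at -0.14 (SE 0.11). The other probe set of Usp2 read -1.10 (adjusted p = 0.0506). Bhlhe40 varied widely at 30 h, with 6.55, 6.11 and 5.11, against 6.69, 6.55 and 6.71 at 16 h.

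**Figure D2:**
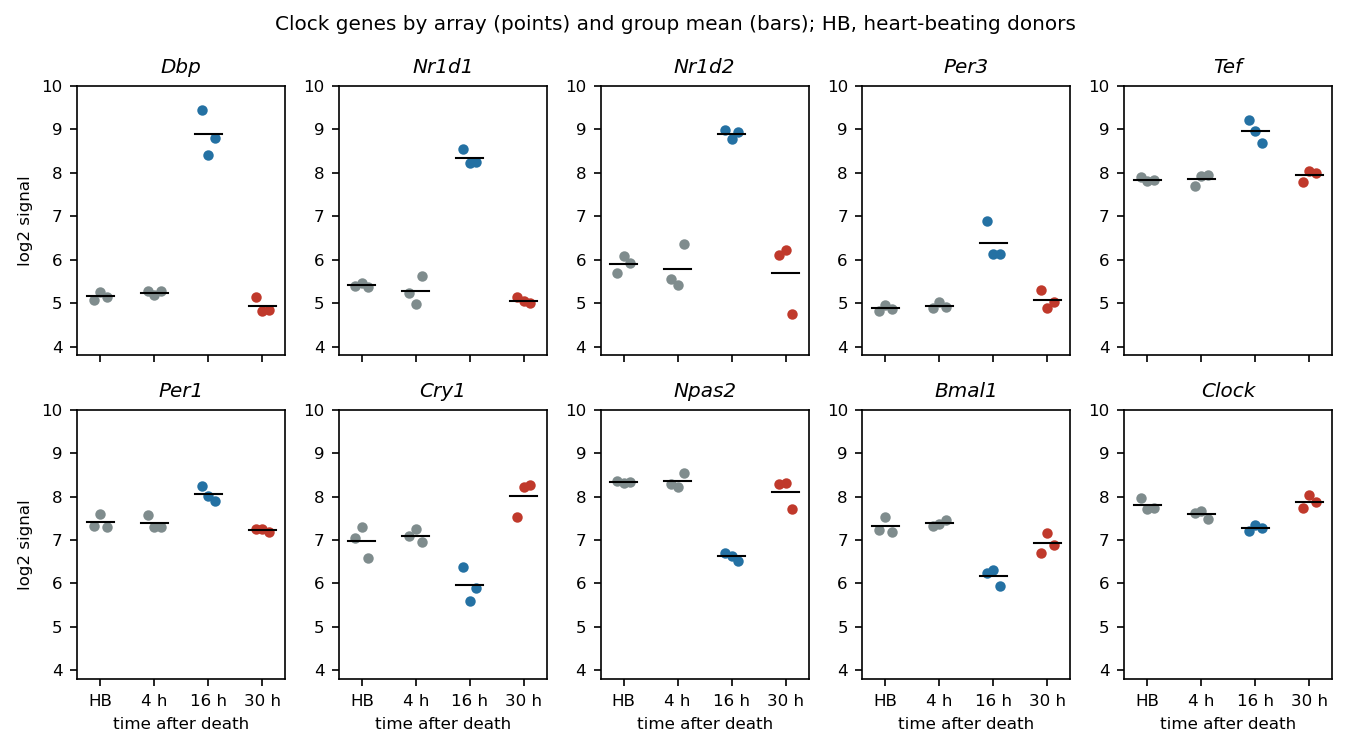
Log2 signals (vertical axis) of the 10 called clock genes in heart-beating donors (HB) and 4, 16 and 30 h after death, with 1 point per animal and a bar at each group mean. In the first 6 panels (Dbp, Nr1d1, Nr1d2, Per3, Tef, Per1) the 16 h points lie above those at 30 h, and in Cry1, Npas2, Bmal1 and Clock they lie below.

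CLOCK and BMAL1 bind the E-box CACGTG, and the REV-ERB and ROR proteins compete for a site that holds TAGGTCA. Both motifs were looked for on both strands in RefSeq promoters of the GRCr8 assembly, from 250 bases before to 50 bases after each transcription start. Of the 19 clock genes 16 had at least 1 such window, 18 windows in all. The E-box was found in a window of Nr1d1, Tef, Bhlhe40 and Bhlhe41, and TAGGTCA in that of Bmal1. No window held both motifs. Of 33469 promoters searched 6.42% held the E-box and 2.63% TAGGTCA. The E-box share was 10.5% for the promoters of genes called higher, 11.9% for genes called lower and 8.2% for genes not called. The windows of Nr1d1 and Tef, which fell, and of Bmal1, which rose, are printed 5' to 3' because they hold a motif and their genes were called, with the motif in capitals.
Nr1d1, second start, chr10:84229405-84229704, minus strand, E-box from position -191: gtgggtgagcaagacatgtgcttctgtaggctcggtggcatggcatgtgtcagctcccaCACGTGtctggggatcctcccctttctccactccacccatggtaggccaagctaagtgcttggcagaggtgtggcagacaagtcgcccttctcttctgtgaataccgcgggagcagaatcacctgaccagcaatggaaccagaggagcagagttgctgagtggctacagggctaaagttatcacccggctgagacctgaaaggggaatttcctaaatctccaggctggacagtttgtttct
Tef, chr7:115206577-115206876, plus strand, E-box from position -198: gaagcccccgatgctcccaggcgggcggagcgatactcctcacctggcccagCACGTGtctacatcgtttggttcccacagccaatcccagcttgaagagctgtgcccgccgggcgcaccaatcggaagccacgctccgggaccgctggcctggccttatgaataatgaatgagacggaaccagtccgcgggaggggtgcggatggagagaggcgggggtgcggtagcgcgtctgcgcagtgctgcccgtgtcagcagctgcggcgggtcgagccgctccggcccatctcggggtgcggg
Bmal1, chr1:176766078-176766377, plus strand, TAGGTCA from position -16: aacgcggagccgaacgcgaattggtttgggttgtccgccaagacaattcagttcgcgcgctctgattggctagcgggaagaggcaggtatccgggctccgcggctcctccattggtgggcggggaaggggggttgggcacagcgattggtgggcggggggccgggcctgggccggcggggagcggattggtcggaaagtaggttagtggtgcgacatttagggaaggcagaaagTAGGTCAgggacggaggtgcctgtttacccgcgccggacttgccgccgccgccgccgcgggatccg

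Outside the clock, the steepest falls were in enzymes of steroid, amino acid and fatty acid handling and in secreted proteins. Hsd17b2, which oxidizes estradiol and testosterone, had 9.09, 9.38 and 9.21 at 30 h, against 12.59, 12.12 and 12.37 at 16 h. It fell 8.77-fold, with a difference of -3.13 (SE 0.13, adjusted p = 3.3e-08). Its means were 9.53 in heart-beating donors and 9.45 at 4 h. A lack of overlap was a condition for naming the genes of this paragraph. Sds, serine dehydratase, which feeds serine into gluconeogenesis, had 6.66, 6.78 and 6.65 at 30 h, against 10.67, 9.19 and 9.17 at 16 h, a difference of -2.98 (SE 0.58, adjusted p = 0.00634). Animal 1 was the highest of the 16 h arrays for Sds. Mt2A, a metallothionein that binds zinc and is induced by glucocorticoids and metals, had 9.84, 9.06 and 9.20 at 30 h, against 12.54, 12.50 and 11.63 at 16 h, a difference of -2.86 (SE 0.45, adjusted p = 0.00196). Cpt1a, the carnitine palmitoyltransferase that admits fatty acids to mitochondria, had 7.25, 7.72 and 7.62 at 30 h, against 10.61, 10.36 and 9.70 at 16 h. It fell 6.46-fold, with a difference of -2.69 (SE 0.21, adjusted p = 3.52e-05), and its other probe set was called lower at -0.46. The other means of these last 3 genes were 7.93 in heart-beating donors and 7.56 at 4 h for Sds, 10.81 in heart-beating donors and 10.24 at 4 h for Mt2A and 8.37 in heart-beating donors and 8.20 at 4 h for Cpt1a. For Sds heart-beating animal 2 read 9.74, above 16 h animals 2 and 3, while heart-beating animals 1 and 3 read 7.14 and 6.91.

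Among secreted and surface proteins, Mug1, a murinoglobulin that traps proteases in rodent plasma, had 5.05, 5.11 and 4.81 at 30 h, against 8.22, 6.61 and 7.35 at 16 h. It fell 5.28-fold, with a difference of -2.40 (SE 0.31, adjusted p = 0.000768), and its means were 9.25 in heart-beating donors and 9.24 at 4 h, so the means of both late groups lay below those of both early ones. Serpina7, the thyroxine-binding globulin, had 6.003, 5.78 and 5.18 at 30 h, against 8.59, 8.09 and 7.40 at 16 h, a difference of -2.37 (SE 0.50, adjusted p = 0.0096) that was not called without 16 h animal 1. Cd36, a fatty acid transporter, had 6.72, 7.24 and 6.99 at 30 h, against 9.26, 8.68 and 8.96 at 16 h, a difference of -1.98 (SE 0.24, adjusted p = 0.000505), with means of 9.77 in heart-beating donors and 9.35 at 4 h. Arrays without overlap were a condition for naming these 3 genes among the largest falls, and 29% of all genes had such arrays.

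The other large falls were in regulators. Klf9, a glucocorticoid-responsive transcription factor, had 8.35, 8.83 and 8.42 at 30 h, against 10.58, 10.46 and 10.22 at 16 h, a difference of -1.89 (SE 0.29, adjusted p = 0.00184). Herpud1, a component of protein quality control in the endoplasmic reticulum, had 8.68, 8.91 and 9.06 at 30 h, against 10.94, 10.69 and 10.76 at 16 h, a difference of -1.92 (SE 0.22, adjusted p = 0.000473). The means were 9.50 in heart-beating donors and 9.28 at 4 h for Klf9 and 9.90 in heart-beating donors and 9.83 at 4 h for Herpud1. A lack of overlap was a condition for naming the regulators of this paragraph among the largest falls. Rgs16, a regulator of G protein signalling, differed by -2.17 (SE 0.57, adjusted p = 0.0251), Lpin1, a phosphatidate phosphatase and coactivator of fasting genes, by -2.15 (SE 0.57, adjusted p = 0.0268), and Noct, a rhythmic phosphatase also known as nocturnin, by -1.94 (SE 0.52, adjusted p = 0.0273). Heart-beating animal 2 read 10.69 for Rgs16, 10.62 for Lpin1 and 9.33 for Noct, above every 16 h array of these genes. Heart-beating animals 1 and 3 read 8.14 and 8.87 for Rgs16, 8.04 and 8.16 for Lpin1 and 7.01 and 7.06 for Noct. For Klf9 heart-beating animal 2 read 10.36, within the 16 h range. The calls of Rgs16, Lpin1 and Noct were less firm. Rgs16 was not called without 16 h animal 1, 2 or 3 or 30 h animal 1 or 3, Lpin1 without 16 h animal 1 or 2 or 30 h animal 1 or 3, and Noct without 16 h animal 1 or 2 or 30 h animal 1 or 2. Across all settings the difference lay between -2.58 and -1.81 for Rgs16, between -2.52 and -1.83 for Lpin1 and between -2.16 and -1.07 for Noct.

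The largest rise was in Lgalsl, which encodes a galectin-like protein, with 9.02, 9.21 and 8.91 at 30 h, against 6.93, 6.97 and 6.66 at 16 h. It rose 4.58-fold, with a difference of 2.19 (SE 0.10, adjusted p = 4.41e-08), and its other probe set was called higher at 1.00. Its means were 8.42 in heart-beating donors and 8.40 at 4 h, so the 16 h arrays stood low among the 4 groups. G0s2, an inhibitor of the fat-cleaving lipase ATGL, had 10.74, 10.74 and 11.47 at 30 h, against 8.50, 9.47 and 9.27 at 16 h, a rise of 3.75-fold with a difference of 1.91 (SE 0.43, adjusted p = 0.0123), which was not called without 16 h animal 1. Angptl8, a secreted regulator of lipoprotein lipase, had 9.32, 8.34 and 9.02 at 30 h, against 6.80, 7.57 and 7.36 at 16 h, a difference of 1.65 (SE 0.49, adjusted p = 0.0448) that lost its call in 12 of 23 settings. They were the fits without 16 h animal 1, 2 or 3, 30 h animal 1 or 3, heart-beating animal 3 or 4 h animal 3, and those with the mean of all probe sets, a variance trend, array weights, replicate number as a block or the Gapdh covariate. The early animals varied for both genes. G0s2 read 11.17, 9.43 and 10.60 in heart-beating donors and 9.97, 11.34 and 10.31 at 4 h. Angptl8 read 8.50, 6.95 and 7.78 in heart-beating donors and 6.88, 9.15 and 8.32 at 4 h. Heart-beating animal 2 lay within the 16 h range for both genes, as did 4 h animal 1 for Angptl8. Chka, choline kinase, had 8.53, 8.42 and 7.91 at 30 h, against 6.001, 6.65 and 6.86 at 16 h, a difference of 1.78 (SE 0.21, adjusted p = 0.000514). Ppp1r3b, which targets a phosphatase to liver glycogen, had 10.99, 11.05 and 11.11 at 30 h, against 9.24, 9.82 and 9.31 at 16 h, a difference of 1.59 (SE 0.25, adjusted p = 0.00198), with means of 9.72 in heart-beating donors and 9.67 at 4 h. Arrays without overlap were a condition for naming these 5 genes among the largest rises.

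Rises in signalling and structural genes followed. Dusp6, the phosphatase that switches off ERK kinases, had 10.60, 10.34 and 10.30 at 30 h, against 8.56, 9.18 and 8.89 at 16 h. Its difference was 1.54 (SE 0.20, adjusted p = 0.000768), and both other probe sets were called higher, at 1.52 and 0.87. Tubb2a, a beta tubulin, had 11.61, 11.78 and 11.41 at 30 h, against 9.19, 10.17 and 10.34 at 16 h, a difference of 1.70 (SE 0.24, adjusted p = 0.00128), with means of 11.62 in heart-beating donors and 11.19 at 4 h. Inhba, the beta A chain of activin, had 9.25, 9.68 and 9.05 at 30 h, against 7.55, 7.86 and 7.89 at 16 h, a difference of 1.56 (SE 0.22, adjusted p = 0.00123). Slc34a2, a phosphate cotransporter, differed by 1.76 (SE 0.20, adjusted p = 0.000461), Nrep by 1.55 (SE 0.28, adjusted p = 0.00426), Dipk2a by 1.64 (SE 0.19, adjusted p = 0.000473), Rprm, a mediator of cell cycle arrest, by 1.53 (SE 0.25, adjusted p = 0.00263), and C8h15orf39 by 1.25 (SE 0.22, adjusted p = 0.00342). Groups without overlap were a condition for naming these genes too. Of the 30 largest changes 5 were still called with the Gapdh covariate, namely Lgalsl, Cry1, Dbp, Nr1d1 and Hsd17b2. The other probe sets of Dipk2a, Inhba and Ppp1r3b, which lay low on the scale, were not called.

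**Figure D3:**
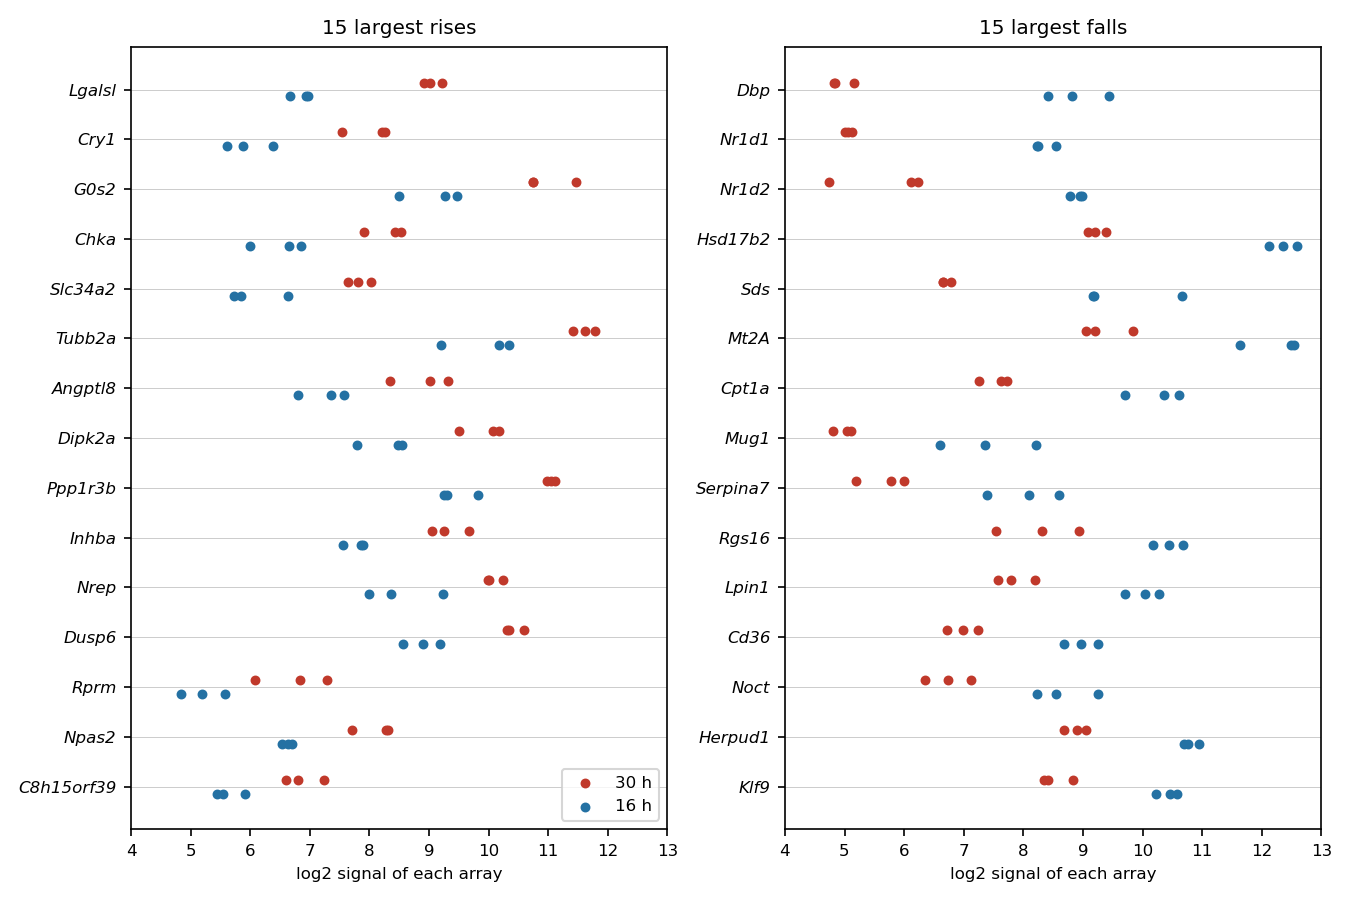
Log2 signal of each array (horizontal axis) for the 15 largest rises (left) and the 15 largest falls (right) among called genes whose groups did not overlap, with 30 h points above and 16 h points below each line. The widest gap between the groups is that of Dbp, at -3.95, and the widest among the rises that of Lgalsl, at 2.19.

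Nuclear genes of oxidative phosphorylation, which make the respiratory chain and ATP synthase of mitochondria, were mostly lower among those called. Of 72 measured subunits 25 were called lower (34.7%, against 8.05% of all genes), 2 higher (2.78%, against 4.75%) and 45 were not called, with a median difference of -0.21 beside 0.011 for all genes. In ATP synthase, Atp5pb, of the stalk that holds the motor, had 9.46, 10.28 and 10.31 at 30 h, against 11.79, 11.37 and 11.46 at 16 h, a difference of -1.53 (SE 0.18, adjusted p = 0.000473), and Atp5mg, a membrane subunit, differed by -1.24 (SE 0.18, adjusted p = 0.00121). Uqcrc2, a core protein of complex III, had 8.50, 8.90 and 8.77 at 30 h, against 10.005, 9.64 and 9.68 at 16 h, a difference of -1.05 (SE 0.12, adjusted p = 0.000357), and its other probe set read 0.18 and was not called. In complex I, Ndufb8 fell by 0.92 on the log2 scale (SE 0.10) and Ndufa8 by 0.62 (SE 0.10), and in complex IV Cox6a1 fell by 0.77 (SE 0.11) and Cox5a by 0.62 (SE 0.12). The 2 rises were small: Ndufb1 at 0.32 (SE 0.06) and Atp5f1e, the epsilon subunit of ATP synthase, at 0.31 (SE 0.07). The lower count was 10 without 16 h animal 1, and after further quantile normalization 21 were lower and 8 higher. The end difference of Gapdh was larger at 30 h by 0.919. With it as a covariate 11 of the 27 called subunits had the same sign and 16 the opposite one, and the list's median was 0.23.

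Other mitochondrial pathways gave like counts. In the tricarboxylic acid cycle 6 of 17 genes fell (35.3%, against 8.05% of all genes) and 0 rose. The falls held Suclg1 of succinyl-CoA ligase at -0.98 (SE 0.23), Suclg2 at -0.62 (SE 0.13), Dld, the shared dehydrogenase subunit of the keto acid complexes, at -0.67 (SE 0.17), and Idh3b at -0.49 (SE 0.10). The lower count was 1 without 16 h animal 1 and 3 without 16 h animal 3. Among 21 genes of fatty acid oxidation 9 fell (42.9%, against 8.05% of all genes) and 1 rose (4.76%, against 4.75%), the median being -0.27. Besides Cpt1a they held Echs1 at -0.93 (SE 0.18), Decr1 at -0.65 (SE 0.12) and Etfdh, which passes electrons to the respiratory chain, at -0.72 (SE 0.14). The falls numbered 5 without 16 h animal 1, and without 30 h animal 1 the rises numbered 3. The sign held with the Gapdh covariate in 2 of 6 called genes of the cycle and in 3 of 10 of fatty acid oxidation, where Cpt1a read -2.11.

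Amino acid breakdown, by which the liver turns dietary and body protein into fuel and glucose, held falls and rises side by side. Of 40 genes 16 fell (40%, against 8.05% of all genes) and 5 rose (12.5%, against 4.75%), with a median of -0.22. Sds led the falls. Tdo2, which opens tryptophan breakdown, had 10.93, 11.41 and 11.67 at 30 h, against 12.80, 12.51 and 12.49 at 16 h, a difference of -1.26 (SE 0.16, adjusted p = 0.000768), and Hibadh, of valine breakdown, differed by -0.62 (SE 0.10, adjusted p = 0.00181). Prodh, proline dehydrogenase, rose, with 11.12, 11.05 and 11.10 at 30 h, against 10.27, 10.47 and 10.22 at 16 h and a difference of 0.77 (SE 0.09, adjusted p = 0.000473). Its other probe set, low on the scale, read -0.08 and was not called. The counts were 7 lower and 3 higher without 16 h animal 1. With the Gapdh covariate 15 of the 21 called genes had the same sign. Of 11 genes of the urea cycle and ammonia handling 4 fell (36.4%, against 8.05% of all genes) and 0 rose. They were the cycle enzymes Asl, argininosuccinate lyase, at -0.87 (SE 0.21) and Otc at -0.38 (SE 0.08). The others, Glud1 at -0.58 (SE 0.12) and Glul at -0.39 (SE 0.10), handle ammonia and are not enzymes of the cycle. Other probe sets of these genes differed among themselves. That of Glud1, about as bright, read 0.0006 and was not called, that of Asl was called lower at -1.26, and those of Glul read -1.20 (adjusted p = 0.000378) and -0.21 (not called). The sign held in 3 of the 4 called genes under the Gapdh covariate, Glud1 being the exception. The falls numbered 2 without 16 h animal 1, without 30 h animal 1, and after cyclic loess or further quantile normalization. The list's median of -0.12 was 0.02 after further quantile normalization. Cps1, which makes the cycle's carbamoyl phosphate, read 0.07 (SE 0.06) by its brightest probe set, not called, and -1.26 (adjusted p = 0.00126) by its other one.

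In glucose metabolism, 3 of 8 gluconeogenic genes fell (37.5%, against 8.05% of all genes) and 0 rose. They were Fbp1, fructose bisphosphatase, at -0.94 (SE 0.17, adjusted p = 0.00376), Tat, the glucocorticoid-induced tyrosine aminotransferase, at -1.11 (SE 0.25, adjusted p = 0.0132), and Slc37a4, the glucose-6-phosphate transporter, at -0.56 (SE 0.12, adjusted p = 0.00992). Fbp1 had the opposite sign with the Gapdh covariate and the other 2 the same one. Ppargc1a, a coactivator of gluconeogenic genes, was not called by its brightest probe set at -0.31 (SE 0.12), while another probe set read -1.17 (adjusted p = 0.00158). Among 15 glycolytic genes limma called 0, with 4 under an unadjusted p of 0.05 and Ldha closest at -0.57 (SE 0.18, adjusted p = 0.0523), and 0 to 2 were called lower when single arrays were left out, 2 without 30 h animal 3. Of 12 genes of glycogen metabolism 1 rose (8.33%, against 4.75% of all genes) and 3 fell (25%, against 8.05%). Ppp1r3b rose, and Ugp2, which makes UDP-glucose, Gyg1, the primer protein glycogenin, and Pygl, the liver phosphorylase, fell by 0.86 (SE 0.15), 0.55 (SE 0.15) and 0.55 (SE 0.14) on the log2 scale. These falls were 1 without 16 h animal 1, without 30 h animal 1 or without 30 h animal 3. Pygl alone of these 4 genes had the opposite sign under the Gapdh covariate.

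Lipogenesis split as well. Of 18 genes 4 rose (22.2%, against 4.75% of all genes) and 2 fell (11.1%, against 8.05%), with a median of 0.02. Fasn, fatty acid synthase, had 11.65, 11.84 and 11.46 at 30 h, against 10.55, 10.84 and 11.11 at 16 h, a difference of 0.82 (SE 0.14, adjusted p = 0.00287), and its other probe set was called higher at 0.84. Mlxipl, which encodes the carbohydrate-responsive factor ChREBP, rose by 0.47 (SE 0.07, adjusted p = 0.00221). Thrsp, the thyroid hormone responsive protein Spot 14, fell, with 11.12, 11.35 and 11.12 at 30 h, against 12.31, 12.09 and 12.32 at 16 h and a difference of -1.04 (SE 0.09, adjusted p = 0.000104). Both of its other probe sets were called lower, at -2.23 and -2.15. Dgat2, which completes triglyceride synthesis, differed by -0.51 (SE 0.09, adjusted p = 0.00355) and by -1.03 through its other probe set. With the Gapdh covariate all 6 called genes had the same sign.

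Of 20 genes of bile acid synthesis and transport 7 fell (35%, against 8.05% of all genes) and 2 rose (10%, against 4.75%). The list's median was -0.22. Abcc2, the canalicular exporter of conjugates, had 9.99, 10.41 and 10.10 at 30 h, against 11.28, 11.14 and 11.45 at 16 h, a difference of -1.12 (SE 0.12, adjusted p = 0.000338). Slc10a1, the sodium-driven importer of bile acids, differed by -0.43 (SE 0.07, adjusted p = 0.00263), Nr5a2, a nuclear receptor that activates bile acid synthesis, by -0.65 (SE 0.08, adjusted p = 0.000768), and Amacr, of side chain shortening, by -0.53 (SE 0.08, adjusted p = 0.0012). The 7 falls were 7 to 9 when single arrays were left out. The 2 rises were 0 without 16 h animal 1 or 30 h animal 2, 1 without 30 h animal 1, and 4 after cyclic loess or further quantile normalization. With the Gapdh covariate 8 of the 9 called genes had the same sign. Among 30 cytochrome P450 genes and receptors of drug metabolism 3 fell (10%, against 8.05% of all genes) and 1 rose (3.33%, against 4.75%), shares near those of all genes. They were Nr1i2, the receptor PXR, at -0.72 (SE 0.14), Cyp2b3 at -0.61 (SE 0.12), Cyp2c23 at -0.33 (SE 0.10) and Cyp2c22, the rise, at 0.75 (SE 0.18). That rise was not called without 16 h animal 1 or 2, 3 genes were higher without 30 h animal 2 and 3 after further quantile normalization, and 5 were lower without 30 h animal 3. Cyp2e1 was not called at -0.25 (SE 0.08, adjusted p = 0.0607). Of 31 conjugation enzymes 5 fell (16.1%, against 8.05% of all genes) and 2 rose (6.45%, against 4.75%). Gsta3, a glutathione transferase, was higher at 1.00 (SE 0.18, adjusted p = 0.00461) and Gstz1 lower at -0.78 (SE 0.10, adjusted p = 0.000652). The falls there numbered 2 without 16 h animal 1 and 3 without 30 h animal 1, and the rises 1 without 30 h animal 1, 2 or 3, 16 h animal 1 or 2, heart-beating animal 3 or 4 h animal 1. All 4 called P450 genes and receptors kept their sign under the Gapdh covariate, as did 5 of 7 conjugation enzymes.

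In 5 families of plasma proteins made by the liver the share that fell was above the 8.05% of all genes, and in a sixth it was not. The share that rose over all genes was 4.75%. Of 20 genes listed as protease inhibitors 6 fell (30%) and 0 rose. Serpina7, which carries thyroxine, is counted in this list and again among the carrier proteins below. Besides Mug1 and Serpina7 the falls held Serpina3m at -0.81 (SE 0.16, adjusted p = 0.00648) and Serpind1, heparin cofactor II, at -0.51 (SE 0.09, adjusted p = 0.00277). Of 15 clotting factors 6 fell (40%) and 0 rose, with prothrombin, F2, having 11.51, 12 and 12.13 at 30 h, against 12.83, 12.70 and 12.68 at 16 h, a difference of -0.86 (SE 0.12, adjusted p = 0.00128), and Cpb2, which protects clots from lysis, at -0.78 (SE 0.15, adjusted p = 0.00609). Of 17 apolipoproteins and lipoprotein enzymes 6 fell (35.3%) and 1 rose (5.88%): Apoa5, which promotes clearance of triglycerides, fell 2.24-fold with a difference of -1.17 (SE 0.14, adjusted p = 0.000473), and Apoc4 rose by 0.31 (SE 0.06, adjusted p = 0.00699). Of 20 complement genes 5 fell (25%) and 1 rose (5%), Mbl1, a mannose-binding lectin, at -0.80 (SE 0.13, adjusted p = 0.00239) and Masp1, its protease, at 0.49 (SE 0.11, adjusted p = 0.0142). Of 19 acute phase genes 4 fell (21.1%) and 0 rose, Crp, C-reactive protein, at -0.96 (SE 0.15, adjusted p = 0.00175) and the interleukin 6 receptor Il6r at -1.38 (SE 0.31, adjusted p = 0.0119). Of 14 carrier proteins only Serpina7 fell (7.14%) and 0 rose, with a median of -0.06.

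These counts were smaller without 16 h animal 1, which left 3 inhibitors, 3 clotting factors, 3 apolipoprotein genes, 1 complement gene and 1 acute phase gene lower, and no complement gene higher (Masp1). Without 16 h animal 2 the lower counts were 3 for clotting, 3 for apolipoproteins, 3 for complement and 2 for the acute phase. Without 30 h animal 1 they were 3, 3, 1 and 2. Without 30 h animal 3 complement had 8 and the acute phase 2. After further quantile normalization 2 clotting factors, 2 apolipoprotein genes and 3 complement genes were lower, and each of the 5 families kept a median below 0. The sign held with the Gapdh covariate in 5 of 6 called inhibitors, 5 of 6 clotting factors, 5 of 7 apolipoprotein genes, 2 of 6 complement genes, 4 of 4 acute phase genes and, of the carriers, Serpina7. Alb, albumin, read 14.487, 14.509 and 14.495 at 30 h, against 14.495, 14.502 and 14.487 at 16 h, at the ceiling of the scale.

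Genes of protein synthesis fell in part. Of 36 initiation and elongation factors 13 fell (36.1%, against 8.05% of all genes) and 0 rose, with a median of -0.19. Eif3f, of the large initiation complex, had 9.02, 9.28 and 9.32 at 30 h, against 9.88, 9.78 and 9.63 at 16 h, a difference of -0.56 (SE 0.09, adjusted p = 0.00272), Eif2s3, of the factor that brings the initiator tRNA, -0.53 (SE 0.08, adjusted p = 0.00136), and Eef2, the translocating elongation factor, -0.55 (SE 0.12, adjusted p = 0.00892). The falls were 4 without 16 h animal 1 and 7 without 16 h animal 2 or 3. Of 42 cytosolic ribosomal proteins 7 fell (16.7%, against 8.05%) and 0 rose, among them Rpl7 at -0.76 (SE 0.16) and Rpl41 at -0.74 (SE 0.11). That count was 2, 4 and 4 without 16 h animals 1, 2 and 3, and 3 and 18 without 30 h animals 1 and 3. After cyclic loess 5 of them were called higher and 6 lower, and after further quantile normalization 6 and 6. The many pseudogenes of ribosomal proteins make single members uncertain. Of 72 mitochondrial ribosomal proteins 12 fell (16.7%, against 8.05% of all genes) and 5 rose (6.94%, against 4.75%). Mrps23 at -0.84 (SE 0.17) and Mrps33 at -0.71 (SE 0.15) fell, and Mrpl38 at 0.59 (SE 0.13) rose. The falls of this list ranged from 1 without 16 h animal 1 through 7 without 16 h animal 2 and 5 without 30 h animal 1 to 22 without 30 h animal 2. Its rises were 1 or 2 without 16 h animal 1, 2 or 3 or 30 h animal 2 or 3, and 3 without heart-beating animal 3 or 4 h animal 1. With the Gapdh covariate the sign held in 4 of 13 called factors, 1 of 7 cytosolic and 5 of 17 mitochondrial ribosomal proteins.

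Antioxidant enzymes fell in 9 of 27 cases (33.3%, against 8.05% of all genes) and rose in 2 (7.41%, against 4.75%). Msra, which repairs oxidized methionine, had 5.11, 5.19 and 5.09 at 30 h, against 6.71, 6.26 and 6.28 at 16 h, a difference of -1.29 (SE 0.15, adjusted p = 0.000505). Gsr, which regenerates glutathione, differed by -0.82 (SE 0.09, adjusted p = 0.000353), Gpx4, which removes lipid peroxides, by -0.85 (SE 0.15, adjusted p = 0.00301), and Prdx3, the mitochondrial peroxiredoxin, by -0.65 (SE 0.11, adjusted p = 0.00293). There were 4 falls and 0 rises without 16 h animal 1, and without 30 h animal 1 there were 5 falls. A single rise was left without 16 h animal 2, 30 h animal 1 or 2, heart-beating animal 1 or 4 h animal 2. After cyclic loess or further quantile normalization 4 enzymes were higher. In 7 of the 11 called genes the sign held with the Gapdh covariate. Hmox1, the inducible heme oxygenase, was not called at -0.26 (SE 0.09, adjusted p = 0.0707). Of 38 proteasome subunits 5 fell (13.2%, against 8.05% of all genes) and 2 rose (5.26%, a share close to the 4.75% of all genes), with Psma3 at 0.40 (SE 0.08) and Psmd7 at 0.45 (SE 0.12) higher and Psmd10 at -0.40 (SE 0.09) and Psmb4 at -0.42 (SE 0.11) lower. The falls in the proteasome ranged from 0 without 16 h animal 1 to 9 without 30 h animal 2, and 6 subunits were higher and 2 lower after further quantile normalization. Between those limits they were 1 without 16 h animal 3 or 30 h animal 1, 2 without heart-beating animal 3 or 4 h animal 1, and 3 without 16 h animal 2 or heart-beating animal 1. The 2 rises were 1 without any 16 h animal or 30 h animal 2. Only 3 of the 7 called subunits had the same sign with the Gapdh covariate and 4 the opposite one, and the list's median of -0.12 became 0.40 in that fit. The other probe set of Psmd7 was not called at -0.14.

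Stress genes showed no single direction. Among 39 immediate early genes 5 fell (12.8%, against 8.05% of all genes) and 4 rose (10.3%, against 4.75%). Ier3, an early survival gene, had 7.56, 8.08 and 7.56 at 30 h, against 9.05, 8.95 and 8.93 at 16 h, a difference of -1.24 (SE 0.20, adjusted p = 0.00203), and Junb, an AP-1 subunit, had 6.07, 6.40 and 6.08 at 30 h, against 6.77, 7.49 and 7.49 at 16 h, a difference of -1.07 (SE 0.20, adjusted p = 0.00492). Both lay lower at 30 h in every array. Dusp6 and Ier5 rose, Ier5 with 8.32, 8.27 and 8.23 at 30 h, against 7.19, 7.46 and 7.60 at 16 h and a difference of 0.86 (SE 0.15, adjusted p = 0.00326). Fos, another AP-1 subunit, had 5.80, 4.89 and 5.09 at 30 h, against 4.86, 5.33 and 5.58 at 16 h, with overlapping groups and a difference of 0.01 (SE 0.57, adjusted p = 0.995). The 4 rises were 2 without 16 h animal 1 or 2 or 30 h animal 1, and all 9 called genes had the same sign with the Gapdh covariate.

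Of 28 heat shock chaperones and regulators 6 fell (21.4%, against 8.05% of all genes) and 3 rose (10.7%, against 4.75%). The mitochondrial chaperones Hspa9, at -0.82 (SE 0.14, adjusted p = 0.00372), and Hspd1, at -0.45 (SE 0.09, adjusted p = 0.00712), fell with the co-chaperone Dnaja2, at -0.47 (SE 0.12, adjusted p = 0.0281), and Hsf1, the master factor of the response, rose by 0.40 (SE 0.08, adjusted p = 0.00837). The falls ranged from 2 without 16 h animal 1 or 3 or 30 h animal 1, through 3 without 16 h animal 2, to 10 without 30 h animal 3. The rises were 6 without 30 h animal 1 and 1 without 16 h animal 1 or 2, 30 h animal 3 or heart-beating animal 3. In the endoplasmic reticulum stress response 5 of 25 genes fell (20%, against 8.05% of all genes) and 3 rose (12%, against 4.75%). Beside Herpud1, the sensor kinase Eif2ak3 fell by 0.57 on the log2 scale (SE 0.11), while Atf4 at 0.42 (SE 0.10, adjusted p = 0.0155) and Atf6 at 0.30 (SE 0.08, adjusted p = 0.0214) rose. Those falls were 2 without 16 h animal 1 or 2, 3 without 4 h animal 2 or 3 or 30 h animal 2, and 8 without 30 h animal 3. The 3 rises were 0 without 16 h animal 1 and 1 without 16 h animal 3 or 30 h animal 3. With the Gapdh covariate the sign held in 6 of 9 called heat shock genes and in 7 of 8 called genes of the endoplasmic reticulum. Of 28 hypoxia response genes Bnip3, a mitophagy receptor, fell by 0.62 on the log2 scale (SE 0.12) and Adm, adrenomedullin, rose by 0.25 (SE 0.07), the remaining 26 not being called. Both shares, 3.57%, lay below those of all genes, and Bnip3 had the opposite sign under the Gapdh covariate. That rise was lost without heart-beating animal 3, 4 h animal 2, 16 h animal 2 or 3, or 30 h animal 1 or 3, and 2 to 4 genes were lower without heart-beating animal 2, 4 h animal 3 or 30 h animal 2 or 3.

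Splicing and chromatin genes had medians above 0. Of 54 splicing factors 7 rose (13%, against 4.75% of all genes) and 2 fell (3.7%, against 8.05%), with a median of 0.07. Hnrnpc had 10.20, 10.32 and 10.33 at 30 h, against 9.63, 9.70 and 9.78 at 16 h, a difference of 0.58 (SE 0.08, adjusted p = 0.000809), and Sf3a2 differed by 0.36 (SE 0.07, adjusted p = 0.00764), while Sf3b5 fell by 1.08 on the log2 scale (SE 0.15) and Hnrnpm by 0.86 (SE 0.14). The rises were 2 without 16 h animal 1, 4 without 16 h animal 2 or 30 h animal 2, and 12 and 15 after cyclic loess and further quantile normalization. Of 69 chromatin regulators 4 rose (5.8%) and 1 fell (1.45%), shares close to or below those of all genes. Their median was 0.09, and 56 of 69 differences lay above 0, against 7490 of 14217 over all genes. The acetyltransferase Ep300 at 0.32 (SE 0.08, adjusted p = 0.0214), the deacetylase Hdac2 at 0.43 (SE 0.11, adjusted p = 0.0228) and the corepressor Ncor1 at 0.25 (SE 0.07, adjusted p = 0.0237) rose, and the acetyltransferase Kat2b fell by 0.53 on the log2 scale (SE 0.13). The 4 rises were 0 without 16 h animal 1, 1 without 16 h animal 2 or 3, 9 without 30 h animal 3 and 10 after further quantile normalization. The fall was lost without 16 h animal 1 or 2 or 30 h animal 1 or 3, and 2 genes fell without 30 h animal 2. With the Gapdh covariate 8 of 9 called splicing factors and 5 of 5 chromatin regulators had the same sign. The medians in that fit were 0.19 for splicing factors and 0 for chromatin regulators.

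**Figure D4:**
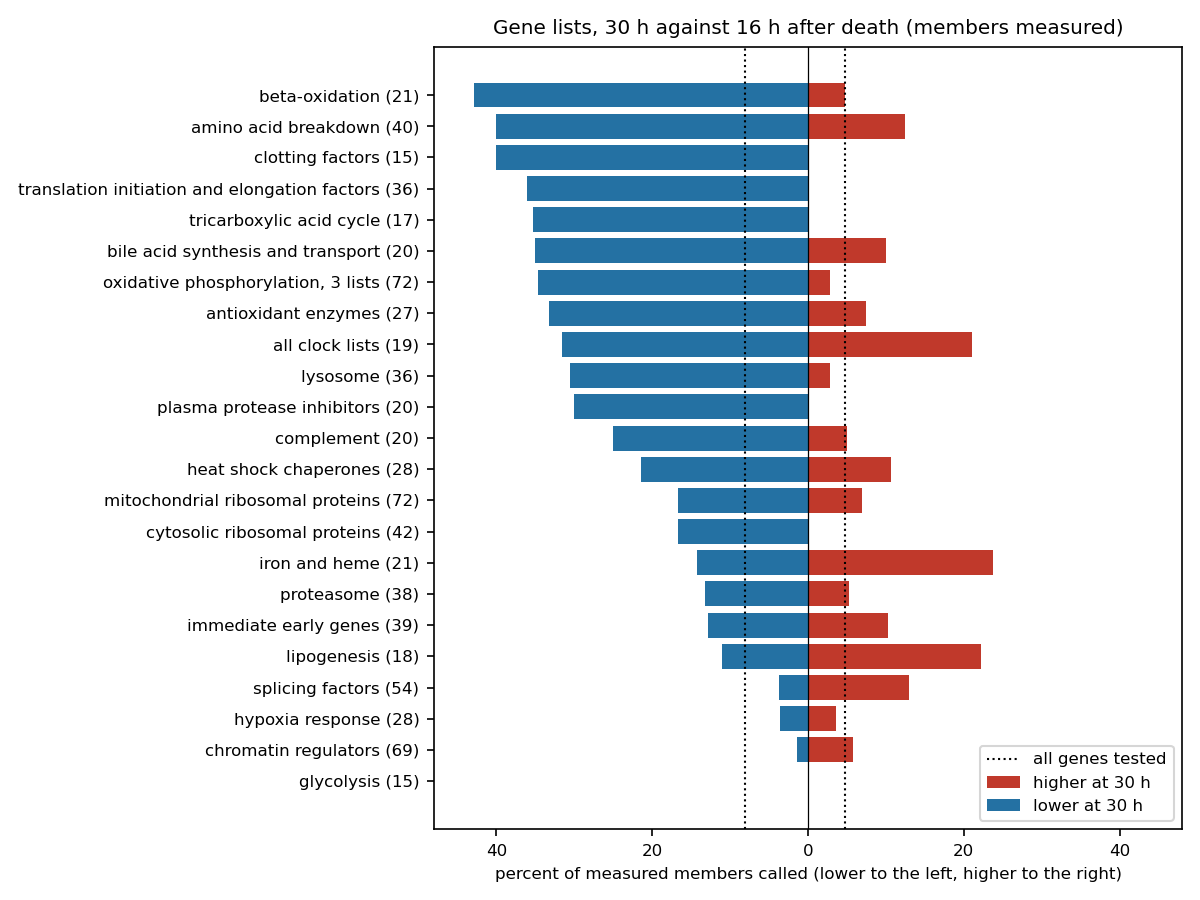
Percent of the measured members of each gene list that were called higher (right) or lower (left) at 30 h, with the number measured in brackets and dotted lines at the shares of all genes, 4.75% higher and 8.05% lower. The clock genes are shown as 1 list and the subunits of oxidative phosphorylation as another, not by their 3 sublists each. Among the lists as shown, iron and heme genes (23.8%), lipogenesis (22.2%) and clock genes (21.1%) hold the longest bars to the right, and beta-oxidation (42.9%), amino acid breakdown (40%) and clotting factors (40%) those to the left.

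Markers were used to check what cells the arrays read. The 20 measured hepatocyte markers were led by Alb at the ceiling of the scale, and their summed linear signal, on the log2 scale, ran from 16.55 to 16.68 at 30 h and from 16.74 to 16.78 at 16 h. Of these markers 5 fell (25%, against 8.05% of all genes) and 1 rose (5%, against 4.75%). The asialoglycoprotein receptor subunits Asgr1, with 8.72, 9.36 and 9.53 at 30 h, against 10.39, 10.15 and 10.10 at 16 h, and Asgr2, with 8.59, 8.87 and 8.83 at 30 h, against 10.11, 9.82 and 9.65 at 16 h, differed by -1.01 (SE 0.17, adjusted p = 0.00275) and -1.10 (SE 0.16, adjusted p = 0.00123), and Tat and Tdo2 are named above. The falls were 3 without 16 h animal 1, and the list's median of -0.09 was 0.05 after cyclic loess. The rise was lost without 16 h animal 1 or 2 or 30 h animal 2 or 3, and 2 markers rose without 4 h animal 1 or 3. Among 21 markers of Kupffer cells, the liver's macrophages, 4 fell (19%, against 8.05%) and 1 rose (4.76%, against 4.75%), with a median of -0.26. Cd14, a receptor for bacterial lipopolysaccharide, had 9.76, 9.96 and 9.78 at 30 h, against 9.30, 9.27 and 8.995 at 16 h and rose by 0.64 (SE 0.10, adjusted p = 0.00167), while C1qb at -0.69 (SE 0.16, adjusted p = 0.0171) and Mrc1, a mannose receptor, at -0.47 (SE 0.13, adjusted p = 0.0313) fell. The 4 falls were 0 without 16 h animal 1 or 30 h animal 1 and 1 without 16 h animal 3. Their summed level was 12.53 to 12.70 at 30 h and 12.66 to 12.84 at 16 h.

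Of 21 markers of the liver endothelium 2 fell, a share of 9.52% that lay near the 8.05% of all genes. They were the scavenger receptor Stab2 at -0.65 (SE 0.14, adjusted p = 0.0107) and the Fc receptor Fcgr2b at -0.53 (SE 0.14, adjusted p = 0.0236). Summed levels of the list were 12.09 to 12.56 at 30 h and 12.62 to 12.66 at 16 h. Those falls were 1 without 16 h animal 1 or 3 or 30 h animal 3, and 5 without 30 h animal 2. In the list for stellate cells and fibroblasts 1 of 24 genes was called higher, a share of 4.17% that lay below the 4.75% of all genes. It was Pdgfra, a growth factor receptor, with 8.61, 8.48 and 8.20 at 30 h, against 7.82, 7.87 and 7.91 at 16 h. Its difference was 0.56 (SE 0.09, adjusted p = 0.0028). Summed levels of that list were 12.64 to 13.04 at 30 h and 12.71 to 12.83 at 16 h, and 2 or 3 genes were higher without 4 h animal 2 or 3 or 30 h animal 2 or 3. Of 13 markers of bile duct cells 1 rose (7.69%, against 4.75% of all genes), Tm4sf4 by 0.27 (SE 0.08, adjusted p = 0.0429). That call was lost without heart-beating animal 3, 4 h animal 2 or 3, or 16 h animal 1 or 2, while 2 rose without 30 h animal 3. Their summed level was 12.32 to 12.39 at 30 h and 12.09 to 12.23 at 16 h. Limma called 0 of 12 red cell markers, 0 of 22 lymphocyte markers, 0 of 10 neutrophil markers and 0 of 16 markers of the exocrine pancreas, with 3, 1, 0 and 7 of them under an unadjusted p of 0.05. The closest in each were Slc4a1 at 0.43 (SE 0.13, adjusted p = 0.0542), Cd74 at -0.19 (SE 0.08, adjusted p = 0.122), Csf3r at 0.17 (SE 0.08, adjusted p = 0.198) and Cela1 at -0.38 (SE 0.14, adjusted p = 0.0853). Red cell markers had summed levels of 13.82 to 14.38 at 30 h and 13.85 to 14.13 at 16 h, and 2 were higher without 4 h animal 3 or 30 h animal 2. Summed levels of lymphocyte markers were 11.03 to 11.18 at 30 h and 11.08 to 11.21 at 16 h, those of neutrophil markers 8.50 to 8.60 at 30 h and 8.47 to 8.61 at 16 h, and those of pancreatic markers 9.74 to 10.53 at 30 h and 10.33 to 10.81 at 16 h. A single pancreatic marker was called without heart-beating animal 3, 30 h animal 2 or 30 h animal 3. The sign held under the Gapdh covariate in 5 of 6 called hepatocyte markers, 4 of 5 Kupffer markers (all but C1qa), both endothelial markers, Pdgfra and Tm4sf4. How much these cells contribute to the falls and rises above was not tested.

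Probe sets of the same gene were set against each other. In 794 genes both of the 2 brightest probe sets had a mean signal of at least 7. The difference between them changed from 16 h to 30 h in 379 (47.7%), growing in 235 and shrinking in 144. In 77 genes both probe sets were called, 66 times in the same direction and 11 times in opposite directions. Other probe sets were also counted for all called genes. Of 413 other probe sets of genes called higher 41 were called higher (9.93%) and 19 lower (4.6%). Of 503 other probe sets of genes called lower 116 were called lower (23.1%) and 6 higher (1.19%). Over all 20826 probe sets with 1 symbol 2577 were called (12.4%), 927 higher and 1650 lower. Among the 15 largest rises 3 of 7 other probe sets shared the call and 0 had the opposite one, and among the 15 largest falls 4 of 6 and 0. Other probe sets of pathway genes named above also varied. They were called in the same direction for Klf9 (-0.32), Lpin1 (-1.51), Hspa9 (-1.19) and Rpl7 (-0.95), beside another of Klf9 and 2 of Hspa9 that were not called. Neither other probe set of Ier5, Masp1, Ncor1 and Nr5a2 was called, nor that of Atf6 (-0.24), Eef2 (0.04), Ep300 (0.19), Gpx4 (-0.26) or Kat2b (-0.23). Probe sets with no symbol or with several, which the comparison leaves out, were called in 5.46% and 23.9% of cases.

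**Figure D5:**
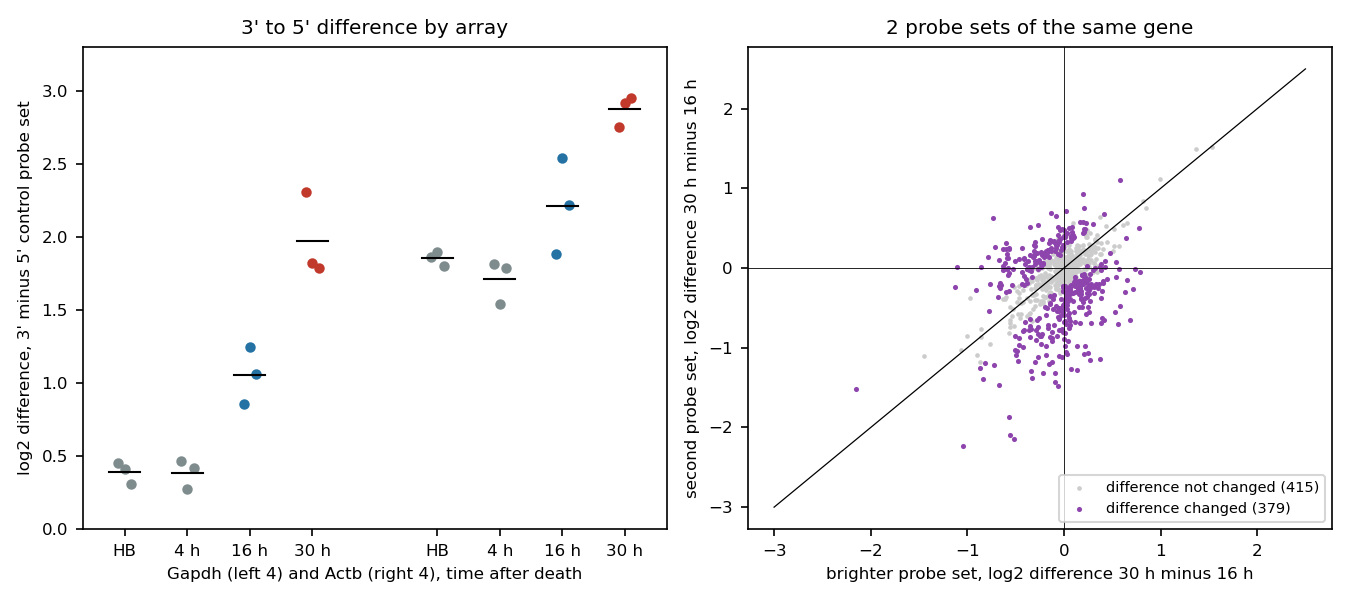
Left: log2 difference between the 3' and 5' control probe sets (vertical axis) of Gapdh and Actb in heart-beating donors (HB) and 4, 16 and 30 h after death, 1 point per animal and a bar at each mean. Right: log2 difference, 30 h minus 16 h, of the brighter (horizontal) against the second probe set (vertical) of 794 genes, with the 379 genes whose probe sets differed in change coloured.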

How the data were processed

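The arrays, 1 per animal, measured RNA of freshly isolated hepatocytes. The authors deposited log2 signals per probe set, made with RMA and analysed with limma per the submitters' processing notes; the sources used here give no versions or settings. RMA scales each array to a common distribution, so a value is relative to the other transcripts on its array, and the number of arrays limits the precision. Here 57 control probe sets were set aside, gene names came from the platform annotation (20758 of 20826 probe sets matched to the GRCr8 gene table by gene ID), and the brightest probe set stood for each gene. limma 3.58.1 in R 4.3.3 fitted 1 mean per group over all 12 arrays (lmFit, eBayes), tested 30 h minus 16 h and adjusted p-values by Benjamini-Hochberg over 14217 genes. End differences of control transcripts were compared by exact permutation tests. The text names the 15 largest rises and falls among called genes whose groups do not overlap, up to 4 members per list with the smallest p, all clock genes, and 5 set genes (Alb, Cps1, Cyp2e1, Fos, Hmox1). Genes and the 51 lists were chosen with earlier results of these data known. Alternatives changed the probe set rule, scaling, variance model, arrays in the fit, replicate block, Gapdh covariate and, in turn, each animal.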

Additional observations from a re-analysis of the deposited data

Results flagged for a closer look

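Probe sets outside the gene comparison also changed between 16 h and 30 h. Of 9780 probe sets with no gene symbol 534 were called by limma (5.46%), 360 higher and 174 lower, with log2 differences from -3.32 to 2.14 and 26 of at least 2-fold. Of 436 probe sets tied to several symbols 104 were called (23.9%), 25 higher and 79 lower, from -2.01 to 0.843 and 3 of at least 2-fold. They were picked out because the gene comparison does not use them, and they are given no gene name here.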

How the results depend on the processing

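The number of genes called, 1821, was 716 to 2163 when each animal of any group was left out, with 272 to 795 higher, 444 to 1368 lower and 69 to 141 of at least 2-fold. Without 16 h animal 1 there were 716 calls (272 higher, 444 lower, 69 of at least 2-fold), without 16 h animal 2 there were 1161 (407 higher, 754 lower), and without 30 h animal 1 there were 715 lower and 71 of at least 2-fold. With only the 6 arrays of both groups 974 were called, 356 higher and 618 lower. After further quantile normalization 1023 were higher. Over every probe set 190 differed at least 2-fold. With the Gapdh difference as a covariate 7 genes were called, 4 higher and 3 lower, all 7 of at least 2-fold. The genes whose 2 probe sets changed unequally numbered 290 to 397 of 794 without single animals. With no minimum signal they numbered 890 of 4525. The Gapdh end difference was 0.752 to 1.016 and that of Actb 0.496 to 0.822 without single animals. Same-numbered animals did not deviate together (r = -0.29, -0.085 and -0.002). With replicate number as a block 1501 genes were called, 552 higher, 949 lower and 114 of at least 2-fold, and 357 genes had unequal probe sets.

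Under the Gapdh covariate the differences with the opposite sign were, for mitochondrial genes, Sdha 0.115, Atp5f1a 0.053, Idh3b 0.021, Suclg2 0.047, Suclg1 0.477, Dld 0.484, Decr1 0.005, Etfdh 0.046 and Echs1 0.074. For protein synthesis and turnover they were Mrps23 0.29, Mrps33 0.305, Mrpl27 0.184, Rpl7 0.206, Rps9 0.186, Rpl11 0.24, Eef2 0.041, Psmb4 0.17, Gabarap 0.263 and Psap 0.099. For metabolic enzymes they were Gpx4 0.064, Fbp1 0.082, Pygl 0.04, Gsta4 0.042 and Glud1 0.084. For the remaining genes they were Cpb2 0.183, Mbl1 0.02, Masp1 -0.177, Dnaja2 0.257, Bnip3 0.018, Aifm1 0.265, Hnrnpm 0.039, Krt8 0.135 and C1qa 0.052. The mean of all probe sets gave Cps1 as -0.597. The cause was not tested. The covariate does not overlap between the groups, and the median SE with it was 0.193.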

Other observations

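Genes of the lysosome, the compartment that digests proteins and lipids, fell in 11 of 36 cases (30.6%, against 8.05% of all genes) and rose in 1 (2.78%, against 4.75%), with a median of -0.16. Psap, the precursor of the saposins that help digest sphingolipids, differed by -0.76 (SE 0.14), the proteases Ctsl and Ctsd by -0.56 (SE 0.11) and -0.45 (SE 0.08; another probe set of Ctsl -0.65, called), and Cd63, a membrane protein, by -0.55 (SE 0.10). The falls numbered 7 without 16 h animal 1, the rise was lost without 16 h animal 1, 2 or 3 or 30 h animal 1 or 3, and the sign held with the Gapdh covariate in 8 of the 12 called genes. Of 30 autophagy genes 7 fell (23.3%, against 8.05% of all genes) and 3 rose (10%, against 4.75%). They held Wipi1, which binds the growing autophagosome, at -0.70 (SE 0.11), Atg10 at -0.60 (SE 0.11), Gabarap at -0.65 (SE 0.15) and Atg5 at 0.37 (SE 0.07). No other probe set of Wipi1, Gabarap or Atg5 was called, and 9 of the 10 called genes had the same sign with the Gapdh covariate. Without 16 h animal 1 there were 2 falls and 1 rise, without 16 h animal 2 there were 4 falls, without 30 h animal 2 there was 1 rise, and without 30 h animal 3 there were 3 falls. Of 33 apoptosis regulators 4 fell (12.1%, against 8.05% of all genes) and 0 rose: the death receptor Fas at -0.99 (SE 0.11), Bcl2l11, a killer protein of the BCL2 family, at -0.99 (SE 0.23), Casp6 at -0.61 (SE 0.12) and Aifm1 at -0.41 (SE 0.12). The other probe sets of Fas, at -0.09 and -0.24, and of Bcl2l11, at -0.09 and 0.14, were not called. Aifm1 had the opposite sign with the Gapdh covariate and the remaining 3 the same one. There were 2 falls without 16 h animal 1 or 2, and 1 rise without 30 h animal 3.

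Iron and heme genes moved both ways, 5 of 21 higher (23.8%, against 4.75% of all genes) and 3 lower (14.3%, against 8.05%). They held Hjv, a coreceptor that raises hepcidin, at 0.55 (SE 0.14), Cpox at 0.41 (SE 0.12), Blvrb at 0.33 (SE 0.08) and Hfe at -0.36 (SE 0.08). The sign held with the Gapdh covariate in 7 of the 8. Without 16 h animal 1 limma called 0 of them. The rises were 2 without 16 h animal 2 or 3 or 30 h animal 2 or 3 and 3 without heart-beating animal 1, and the falls were 1 without 16 h animal 2 or 3 or 30 h animal 1 and 5 without 30 h animal 2. Of 21 genes listed for the growth hormone axis 4 fell (19%, against 8.05% of all genes) and 0 rose. All 4 kept their sign with the Gapdh covariate. The 4 include Hsd17b2, a steroid enzyme that is also 1 of the 15 largest falls. Besides Hsd17b2 they were Ghr, the growth hormone receptor, at -0.52 (SE 0.12) and by its other probe set at -2.14 (adjusted p = 2.86e-05), Cux2, a factor of female liver, at -0.42 (SE 0.10) and -0.67 by its other one (called), and Stat5b, which carries the hormone's signal, at -0.26 (SE 0.07). A single fall was left without 16 h animal 1, and 1 gene was higher without heart-beating animal 2. In cholesterol synthesis Fdps fell by 1.09 on the log2 scale (SE 0.18), Srebf2, which encodes a factor that drives the pathway, fell by 0.23 (SE 0.06), and Dhcr7 rose by 0.49 (SE 0.14), the other 15 of 18 genes not being called. These shares, 11.1% lower and 5.56% higher, lay near those of all genes, the other probe set of Srebf2 was not called at 0.02, and the 3 called genes kept their sign with the Gapdh covariate. The list's median of -0.05 was 0.02 after cyclic loess and 0.06 after further quantile normalization. The rise was lost without heart-beating animal 1, 16 h animal 1 or 30 h animal 1 or 2, and 1 fall was left without 16 h animal 1 or 2 or 30 h animal 3. Of 23 cytoskeleton genes Tubb2a and Tpm4, a tropomyosin, at 0.53 (SE 0.12), rose (8.7%, against 4.75% of all genes). Krt8, a keratin of hepatocytes, fell by 0.46 (SE 0.12), 4.35% of the list against 8.05% of all genes. The other probe set of Tpm4 was not called at -0.08, and Krt8 had the opposite sign with the Gapdh covariate. A single rise was left without 16 h animal 1 or 2, and the fall was lost without 16 h animal 1, 2 or 3 or 30 h animal 1. Of 2 ketogenic genes limma called 0 by their brightest probe sets, with 1 under an unadjusted p of 0.05, while another probe set of Bdh1 was called lower at -0.98 (adjusted p = 0.000744).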
